A study of Mus musculus with 12 samples.

Results

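Gene expression after ITF2357 was compared directly with gene expression after I-BET151 in cultured KPC cells, labelled as pancreatic cancer of the mouse with C57BL/6 genotype. The comparison was chosen by the treatment labels alone, so that the 3 libraries of ITF2357-treated cells were set against the 3 libraries of I-BET151-treated cells, 6 of the 12 libraries of the RNA-seq study, over all 17340 genes of the count table. Both compounds had been given at 1 µM for 48 h in DMEM with serum, so dose and time matched. The remaining libraries were 3 of control cells, labelled both as untreated and as given PBS, and 3 of cells given JQ1 at 1 µM for 48 h. They entered the same statistical fit, and the control level is given beside many of the differences below. A difference between the compounds alone does not place either compound against control. All cells were of the same line, and the labels name no allele, clone or solvent.

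ITF2357, also known as givinostat, is a hydroxamic acid that inhibits histone deacetylases, the enzymes that remove acetyl groups from histone tails and from other proteins. I-BET151 carries a dimethylisoxazole and occupies the bromodomains of the BET proteins, which bind acetylated histones and bring the elongation factor P-TEFb to active genes. Both compounds thus act on the same histone mark: one class keeps acetyl groups in place and the other keeps their readers off. In pancreatic cancer cells the genes most often followed after either class are Myc, the cell cycle genes, the AP-1 targets, the secreted matrix genes and the genes of epithelial identity.

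The labelled cell type was checked against ductal markers on a scale per gene length (RPKM). Keratin Krt8 had a mean of 477 RPKM with I-BET151 and 710.4 with ITF2357, and E-cadherin, Cdh1, 328 and 313. The epithelial adhesion molecule Epcam stood far below them, at 1.02 and 1.53 RPKM. Library totals were 22.2 to 25.6 M counts with I-BET151 and 23.2 to 31.2 M with ITF2357. Log2 CPM values (counts per M counts of a library, scaled with TMM factors) of libraries of the same compound differed per gene by a median of 0.0977 to 0.130, and those of different compounds by 0.374 to 0.395. Counts of every replicate pair differed by more than sampling noise (chi-square per degree of freedom 1.62 to 5.2). Separate cultures are not named in the labels for libraries of one treatment, so the p-values measure a spread between libraries that may be technical, and no batch is labelled.

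Most genes differed between the compounds, and the large differences lay mainly on one side. With edgeR's quasi-likelihood test and Benjamini-Hochberg adjustment over all genes (called at an adjusted p under 0.05), 10896 of 17340 genes (62.8%) were called, 5531 (31.9%) higher with ITF2357 and 5365 (30.9%) lower with ITF2357. Counts of called genes in the lists below stand against these shares. The median size of the log2 difference among called genes was 0.50. At least 2-fold differences were called in 2425 genes (14.0%), 1808 (10.4%) higher with ITF2357 and 617 (3.56%) lower. Of these, 887 and 324 lay in the quartile of genes with the lowest mean log2 CPM, and 71 and 47 in the highest quartile. In that highest quartile, calls of any size were higher with ITF2357 in 32.7% of genes and lower in 49.8%. At least 4-fold, 773 genes were higher with ITF2357 and 64 were lower. The 3 libraries of one compound lay wholly above or below those of the other in 11194 genes (64.6%). With library totals in place of TMM factors the median log2 difference of all genes moved by 0.134, and the share of called genes that were higher with ITF2357 went from 50.8% to 65.5%. List medians close to 0 below are therefore read against that shift, and since each scaling works within a library, a difference in RNA content of the cells is not seen.

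**Figure D1:**
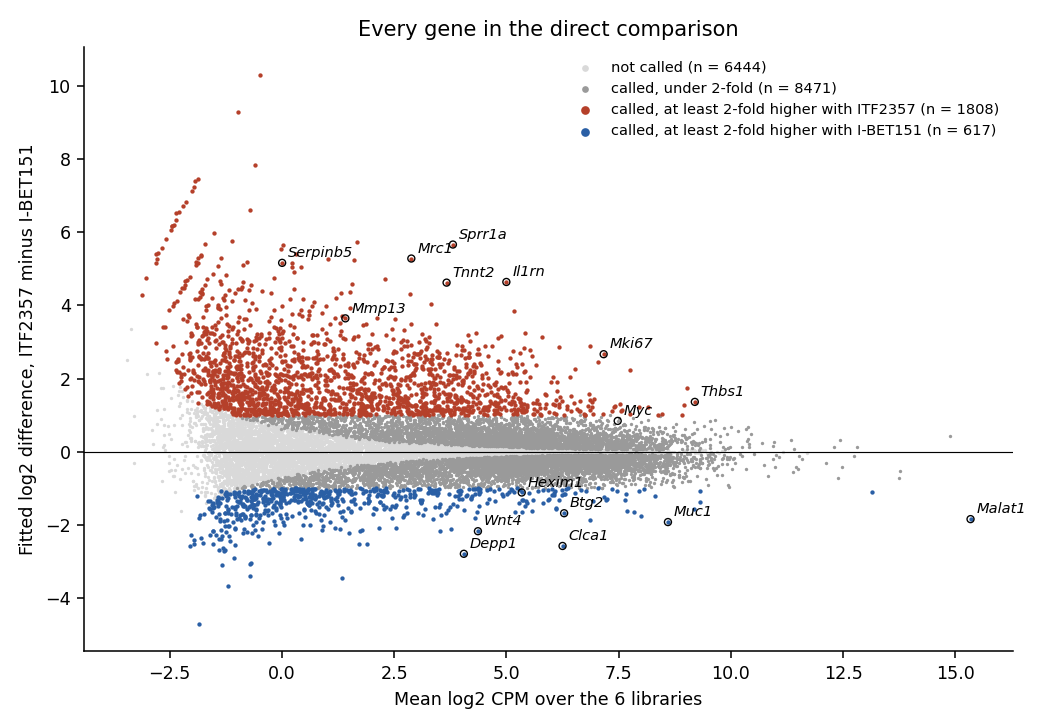
Fitted log2 difference (ITF2357 minus I-BET151) of each of the 17340 genes against its mean log2 CPM over the 6 libraries. Red and blue points are the 1808 and 617 genes called at least 2-fold higher and lower with ITF2357; red points outnumber blue ones, and fitted values at the left edge, where a compound had few or no counts, depend on the prior count.

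Among the genes furthest apart in favour of ITF2357, Sprr1a, Mrc1 and Il1rn were low with I-BET151 and well expressed with ITF2357 and in control. Sprr1a, a precursor protein of the cornified envelope of squamous cells (build mm10, chr3:92483952-92485895, minus strand), stood at 1.89, 1.86 and 2.02 CPM in the I-BET151 libraries and at 99.8, 94.5 and 99.5 CPM in the ITF2357 libraries. Mrc1, the macrophage mannose receptor (chr2:14229392-14332057, plus strand), was at 0.922, 1.604 and 0.919 CPM with I-BET151 and at 45.9, 44.6 and 46.2 with ITF2357. Il1rn, the secreted antagonist of the interleukin receptor Il1r1, was at 6.75, 5.95 and 6.39 CPM with I-BET151 and 159, 159 and 159 CPM with ITF2357. In all of these genes every ITF2357 library was far above every I-BET151 library, with log2 differences of 5.67 ± 0.080 (SE), 5.28 ± 0.098 (SE) and 4.64 ± 0.053 (SE) and adjusted p = 8.1e-34, 2.0e-30 and 4.8e-36. Against a control mean of 29.1 ± 0.58 CPM (SD, n = 3), Sprr1a thus lay above control with ITF2357 and below it with I-BET151. Il1rn in control was 133 ± 4.5 CPM and Mrc1 66.6 ± 0.84 CPM. Mrc1 is listed among the markers of macrophages and leukocytes, of which 4 were measured. Cd14 of that list was also higher with ITF2357 (means 53.4 and 98.8 CPM with I-BET151 and ITF2357), Cd68 was lower (7.10 and 4.33 CPM) and Fcgr3 was not called (0.132 and 0.279 CPM).

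Genes of several other kinds were also far lower with I-BET151 than with ITF2357. For most of them the control level is not given here, so neither compound is placed against control. Tnnt2, a troponin of heart muscle, had 2.43, 2.36 and 2.76 CPM with I-BET151 and 60.5, 65.0 and 61.3 CPM with ITF2357, a log2 difference of 4.63 ± 0.075 (SE). Acan, the cartilage proteoglycan aggrecan, had 10.6, 9.20 and 8.55 CPM with I-BET151 and 141, 123 and 145 CPM with ITF2357 (3.86 ± 0.064 (SE)). The remaining genes of the largest differences were Il18rap, an interleukin receptor subunit (4.73), Frmpd1 (4.32), the surface protein Ly6a (4.05), the adenylyl cyclase Adcy7 (3.66), Stac (3.64), the teneurin Tenm4 (3.49) and the collagen Col6a2 (3.48). Their libraries did not overlap between the compounds, which the rule for naming them required. No counts at all were found in the 3 I-BET151 libraries for 25 genes, of which 23 were called, and no gene lacked counts in all 3 ITF2357 libraries. The lowest total count of a gene in the table was 51. Genes without counts in one group were thus listed only through their counts in the others, which favours a call. These numbers describe the table only. Among these 25, chosen here after their values were seen, the prolactin-family gene Prl2c2 had 542 counts over the ITF2357 libraries and the acetylcholine receptor subunit Chrna1 had 270.0. With the I-BET151 group set to a floor of 3 counts in all, Prl2c2 was at least 140.2-fold higher and Chrna1 at least 69.7-fold higher with ITF2357, bounds that cover counting error only. Prl2c2 has near-identical relatives, so its counts are uncertain.

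Genes furthest apart in favour of I-BET151 differed by smaller factors and several were above control with both compounds. Clca1, a secreted goblet-cell protein (chr3:145003817-145032776, minus strand), stood at 1.83, 2.92 and 2.505 CPM in control, 188, 184 and 187 with I-BET151 and 33.1, 29.9 and 30.2 with ITF2357. Muc1, a membrane mucin of ductal cells (chr3:89229057-89233381, plus strand), stood at 69.5, 71.1 and 70.3 CPM in control, 781, 742 and 742 with I-BET151 and 193, 197 and 206 with ITF2357. Depp1, a regulator of autophagy, stood at 2.37, 2.43 and 2.76, 45.6, 45.1 and 40.04 CPM with I-BET151 and 5.80, 5.86 and 7.13 CPM with ITF2357 in the same order. For each of them the 3 groups of libraries followed one another without overlap, control lowest and I-BET151 highest. The log2 differences between the compounds were -2.58 ± 0.051 (SE) for Clca1, -1.93 ± 0.030 (SE) for Muc1 and -2.79 ± 0.089 (SE) for Depp1, with adjusted p = 1.3e-29, 9.6e-33 and 8.9e-24.

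Other genes of this direction stood differently against control. Wnt4, a secreted Wnt ligand, had 45.8, 40.2 and 47.0 CPM with I-BET151 and 11.98, 7.64 and 9.41 with ITF2357, and its control mean was 8.27 ± 0.51 CPM. Wnt4 was thus near control with ITF2357, a log2 difference of 0.24 against control (adjusted p = 0.070), and -2.18 ± 0.094 (SE) between the compounds. The nuclear RNA Malat1 took 7.11 to 7.34% of all counts of the I-BET151 libraries and was their most abundant gene, with a log2 difference of -1.85 ± 0.021 (SE) (adjusted p = 4.8e-36). Slc7a2, a transporter of cationic amino acids, had means of 8.05 CPM in control, 9.10 with I-BET151 and 2.14 with ITF2357, with ITF2357 the furthest from control. The others were the receptor Gpr146 (-2.17), the exchange factor Mcf2l (-2.08), the drug-metabolising cytochrome Cyp3a13 (-1.87) and the loci 6330403L08Rik (-2.10), E130307A14Rik (-1.84) and 5031434O11Rik (-1.82), which are annotated as long non-coding RNAs.

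**Figure D2:**
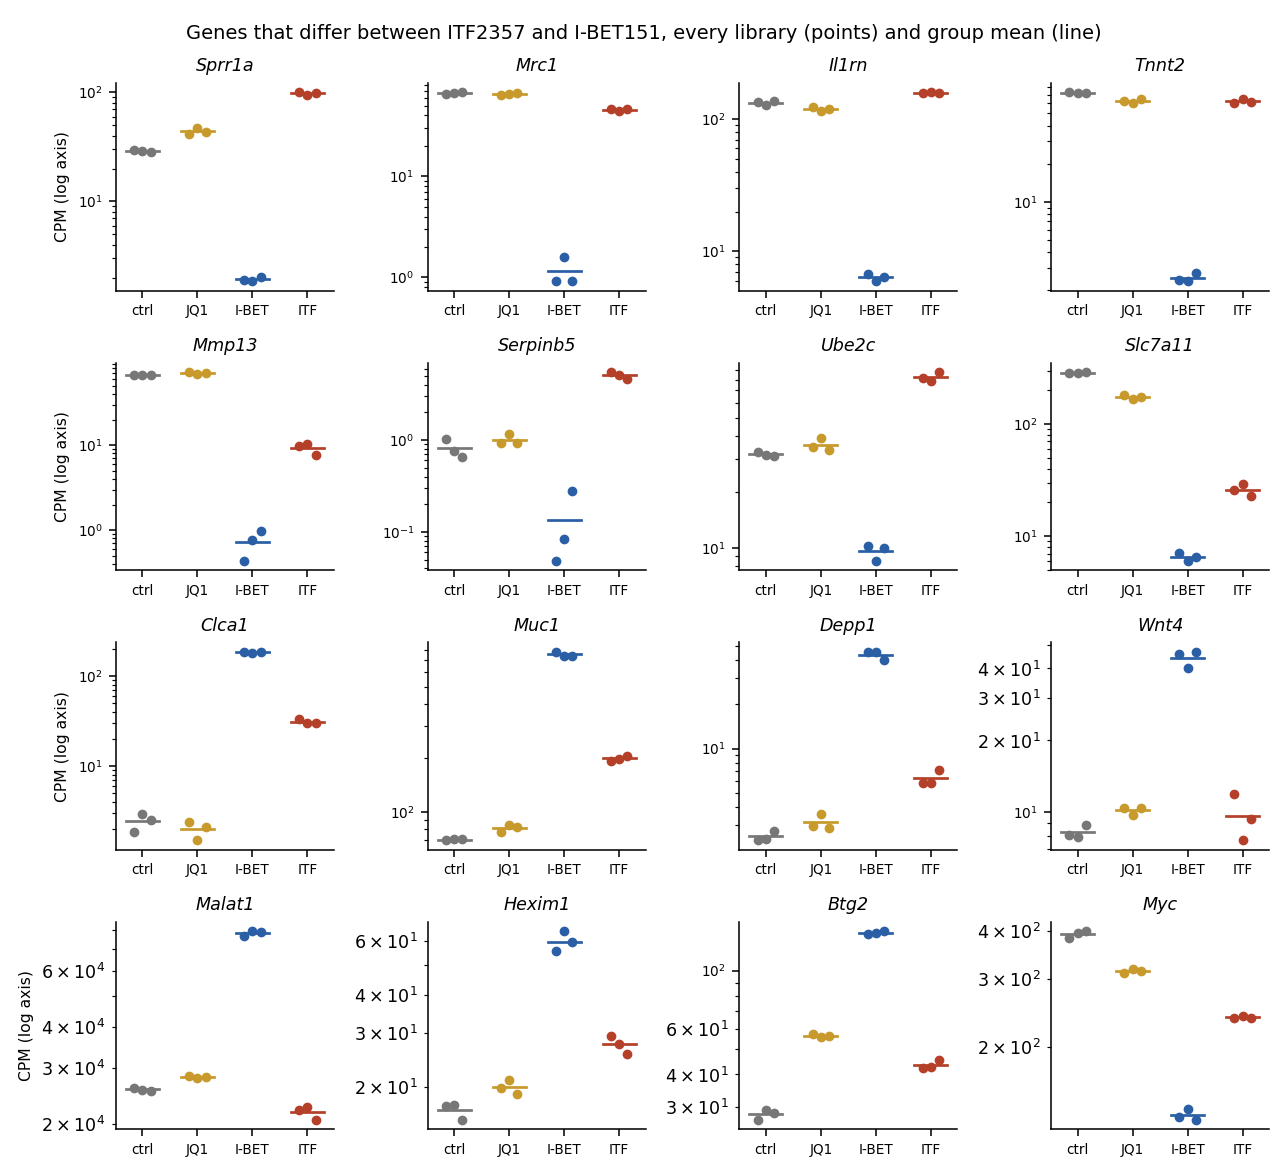
CPM of 16 genes in each of the 12 libraries on a log axis (points, 3 per group) with the group mean (line), for control, JQ1, I-BET151 and ITF2357. In every panel the points of ITF2357 and I-BET151 do not overlap; the I-BET151 libraries are the lowest of the plot for genes such as Sprr1a and Mmp13 and the highest for Clca1, Muc1, Depp1 and Hexim1.

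Among the direct partners of the drug targets, the genes that are known as readouts of BET inhibition were higher with I-BET151. Hexim1 encodes the inhibitory protein of P-TEFb and is widely used as a marker of BET inhibitor exposure. It stood at 55.3, 64.3 and 59.2 CPM with I-BET151, 29.3, 27.5 and 25.7 with ITF2357 and 17.4, 17.5 and 15.6 in control. Brd2, which encodes a BET protein, stood at 579, 569.8 and 576 CPM with I-BET151, 311, 297 and 293 with ITF2357 and 254, 263 and 256 in control. Both genes were highest in every I-BET151 library, and the log2 differences between compounds were -1.12 ± 0.061 (SE) and -0.94 ± 0.026 (SE). With JQ1 at the same dose and time, the means of Hexim1 and Brd2 were 20.0 and 272 CPM. Control means were 16.8 and 258 CPM. Both genes were thus lower with JQ1 than with ITF2357. Brd3 was at -0.05 (adjusted p = 0.190) and the kinase Cdk9 at -0.00 (adjusted p = 0.994). Of the 14 BET and P-TEFb genes, 2 were higher and 7 lower with ITF2357, against 31.9% and 30.9% of all genes, and the median was -0.14, beside -0.00 over all genes. With library totals alone 6 were higher.

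The histone deacetylases and acetyltransferases themselves differed modestly. Of 20 deacetylase and corepressor genes 5 were higher and 9 lower with ITF2357, against 31.9% and 30.9% of all genes (median -0.07, and 0.06 with library totals). The class I enzymes Hdac1 and Hdac2 had log2 differences of 0.24 ± 0.047 (SE) and 0.11 ± 0.038 (SE), and Hdac3 -0.06 ± 0.041 (SE), which was not called (adjusted p = 0.182). Hdac5 and Hdac11 were the lowest with ITF2357, at 55.96, 52.5 and 62.0 against 110.2, 103 and 106 CPM (-0.90) and 14.8, 12.3 and 16.9 against 24.0, 26.0 and 27.2 CPM (-0.80). Neither pair of groups overlapped. Against control, Hdac5 was not called with ITF2357 (0.02, adjusted p = 0.706) and was higher with I-BET151 (0.92). Hdac11 was lower than control with ITF2357 (-0.55) and higher with I-BET151 (0.25). Of the 11 acetyltransferase genes 8 were lower with ITF2357, among them Kat2b (-0.62), Kat6b (-0.47) and Ep300 (-0.35), while Hat1 (0.83), which acetylates newly made histone, and Kat2a (0.59) were higher.

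Histone genes went both ways, 12 higher and 9 lower with ITF2357 of 23, median 0.23. Among clustered linker histone genes Hist1h1b stood at 45.0, 46.3 and 44.2 CPM against 16.5, 14.7 and 15.5, and Hist1h1a at 63.2, 65.5 and 63.4 against 28.3, 30.1 and 29.0, with ITF2357 named first. Their control means were 15.4 and 20.0 CPM. Clustered core histone genes lay on both sides, with Hist1h2be higher with ITF2357 (1.19) and Hist3h2a lower, at 5.83, 5.60 and 4.49 CPM against 13.9, 14.1 and 13.01 (-1.37). H1f0, a linker histone of resting cells, stood at 364, 369 and 365 CPM with I-BET151 and 214, 208 and 207 with ITF2357, with control at 181, 181 and 186. H1f0 was above control in every library of both compounds and overlapped in none. H3f3b (-0.95) and H3f3a (-0.68), which encode the replacement histone, also lay lower with ITF2357, whereas H2afz (1.03) and H2afx (0.89) lay higher. Counts of near-identical clustered histone genes are uncertain.

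Mitosis was the gene list with the largest median difference. All 34 measured genes were higher with ITF2357 and all by at least 2-fold, with a median of 2.59 and a range from 1.64 to 3.12. Against control 34 of 34 were higher with ITF2357 and 34 were lower with I-BET151, with medians of 1.29 and -1.21; over all genes 54.0% were called with ITF2357, 27.6% as higher, and 63.1% with I-BET151, 32.6% as lower, against the same control libraries. In bulk RNA, fewer cells of a kind, such as dividing cells, and less RNA per cell cannot be told apart. Ube2c, the gene of the list with the largest difference, and Cdc20 both encode parts of the ubiquitin machinery that ends mitosis. Their promoter windows are shown because they hold the motifs marked below. They are RefSeq sequences of build GRCm38.p6, 250 bases before to 50 after the annotated start, read 5′ to 3′ on the gene's strand, for Ube2c at chr2:164769679-164769978, plus strand and for Cdc20 at chr4:118437294-118437593, minus strand. Capitals mark CCAAT, the box bound by NF-Y, and TTTGAA, the cell cycle gene homology region (CHR), each on either strand.
Ube2c: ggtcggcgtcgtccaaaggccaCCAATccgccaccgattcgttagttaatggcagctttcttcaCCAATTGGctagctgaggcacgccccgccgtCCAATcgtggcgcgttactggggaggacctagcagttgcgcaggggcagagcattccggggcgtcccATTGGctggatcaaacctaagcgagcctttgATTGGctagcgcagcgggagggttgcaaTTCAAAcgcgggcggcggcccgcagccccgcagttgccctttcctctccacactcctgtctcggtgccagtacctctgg
Cdc20: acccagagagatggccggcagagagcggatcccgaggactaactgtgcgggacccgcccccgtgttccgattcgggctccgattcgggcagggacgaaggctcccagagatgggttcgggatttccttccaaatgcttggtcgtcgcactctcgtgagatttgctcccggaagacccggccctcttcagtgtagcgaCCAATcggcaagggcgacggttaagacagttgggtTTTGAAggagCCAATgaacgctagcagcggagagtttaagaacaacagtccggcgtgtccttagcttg
Ube2c held 6 CCAAT matches, of which an adjoining pair on opposite strands overlaps, and 1 CHR match that begins at position -29 with the annotated start as 0. Cdc20 held 2 CCAAT matches, at -53 and -8, and 1 CHR match at -18. Of the 29 promoter windows found for 27 genes of the mitosis list, 22 (75.9%) held CCAAT and 22 (75.9%) held the CHR, against 37.7% and 12.4% of the 13629 windows of tested genes and 37.4% and 17.9% of all 32851 windows in the table. Windows of genes called at least 2-fold higher with ITF2357 held CCAAT in 39.5% and the CHR in 19.7%. For genes called at least 2-fold lower the shares were 36.5% and 11.3%. Motif shares of a list, here and below, cover its genes whether called or not, so they do not rest on a difference between the compounds. The CHR was searched for after the values of the mitosis genes had been seen.

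The individual values show how far apart the compounds were. Ube2c stood at 10.2, 8.53 and 9.93 CPM with I-BET151, 81.4, 78.6 and 87.8 with ITF2357 and 32.9, 31.5 and 31.0 in control. Ccnb2, a mitotic cyclin, stood at 5.78, 5.99 and 5.93 CPM with I-BET151, 43.8, 42.2 and 45.0 with ITF2357 and 11.6, 14.3 and 11.8 in control. Nuf2, a kinetochore subunit, stood at 2.77, 2.19 and 2.94 CPM with I-BET151, 19.8, 20.8 and 18.7 with ITF2357 and 4.40, 4.51 and 4.10 in control. In these 3 genes the I-BET151 libraries were the lowest and the ITF2357 libraries the highest, with control between them. Mki67, the proliferation antigen, differed by 2.67 ± 0.032 (SE), Top2a, the topoisomerase that untangles chromosomes, by 2.46 ± 0.034 (SE), and Foxm1, a regulator of these genes, by 1.70 ± 0.054 (SE) (adjusted p = 9.6e-36, 3.3e-34 and 6.3e-24).

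DNA replication genes were likewise all higher with ITF2357, 41 of 41, with a median of 1.17. Here the shift against control came mainly on the I-BET151 side: medians were -0.87 with I-BET151 and 0.25 with ITF2357. Rrm2, a subunit of ribonucleotide reductase, stood at 15.5, 14.3 and 16.8 CPM with I-BET151 and 102, 101 and 99.4 with ITF2357, with a control mean of 22.3 ± 1.2 CPM. Unlike the list, Rrm2 lay further from control with ITF2357 (log2 difference 2.18) than with I-BET151 (-0.52). Mcm5, part of the replicative helicase, stood at 6.02, 6.63 and 6.30 CPM with I-BET151 and 40.04, 39.9 and 38.9 CPM with ITF2357, and the thymidine kinase Tk1 at 6.75, 7.598 and 6.21 CPM with I-BET151 and 41.4, 39.7 and 41.04 CPM with ITF2357. In each of these genes the libraries of the compounds did not overlap. Control means were 20.1 ± 0.74 CPM for Mcm5 and 27.9 ± 1.6 CPM for Tk1. Both lay further from control with I-BET151 (-1.67 and -2.02) than with ITF2357 (0.98 and 0.54). CCAAT was held by 22 of 39 windows of this list (56.4%) and the CHR by 5 (12.8%).

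The regulators of G1 did not move together. Of 21 genes 10 were higher and 8 lower with ITF2357, against 31.9% and 30.9% of all genes (median 0.11). Cyclin genes Ccne1 (2.33), Ccne2 (1.72) and Ccnd1 (1.27) and the pocket protein gene Rbl1 (1.63) were higher. The antiproliferative gene Btg2 was lower, at 42.3, 42.8 and 45.3 CPM with ITF2357 and 138, 139 and 141 with I-BET151, both above the control libraries at 26.8, 29.2 and 28.6. Cdkn1a, the p21 inhibitor, was at 10.6, 10.6 and 11.6 CPM with I-BET151 and 8.88, 6.45 and 7.59 with ITF2357, with control at 14.9, 14.8 and 17.1. It was below control in every library of both compounds, and lower with ITF2357 (log2 difference -0.50 ± 0.11 (SE), adjusted p = 1.1e-04). Trp53 was higher with ITF2357 (0.96 ± 0.032 (SE)), with means of 76.2 CPM with I-BET151, 148 with ITF2357 and 153 in control.

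**Figure D3:**
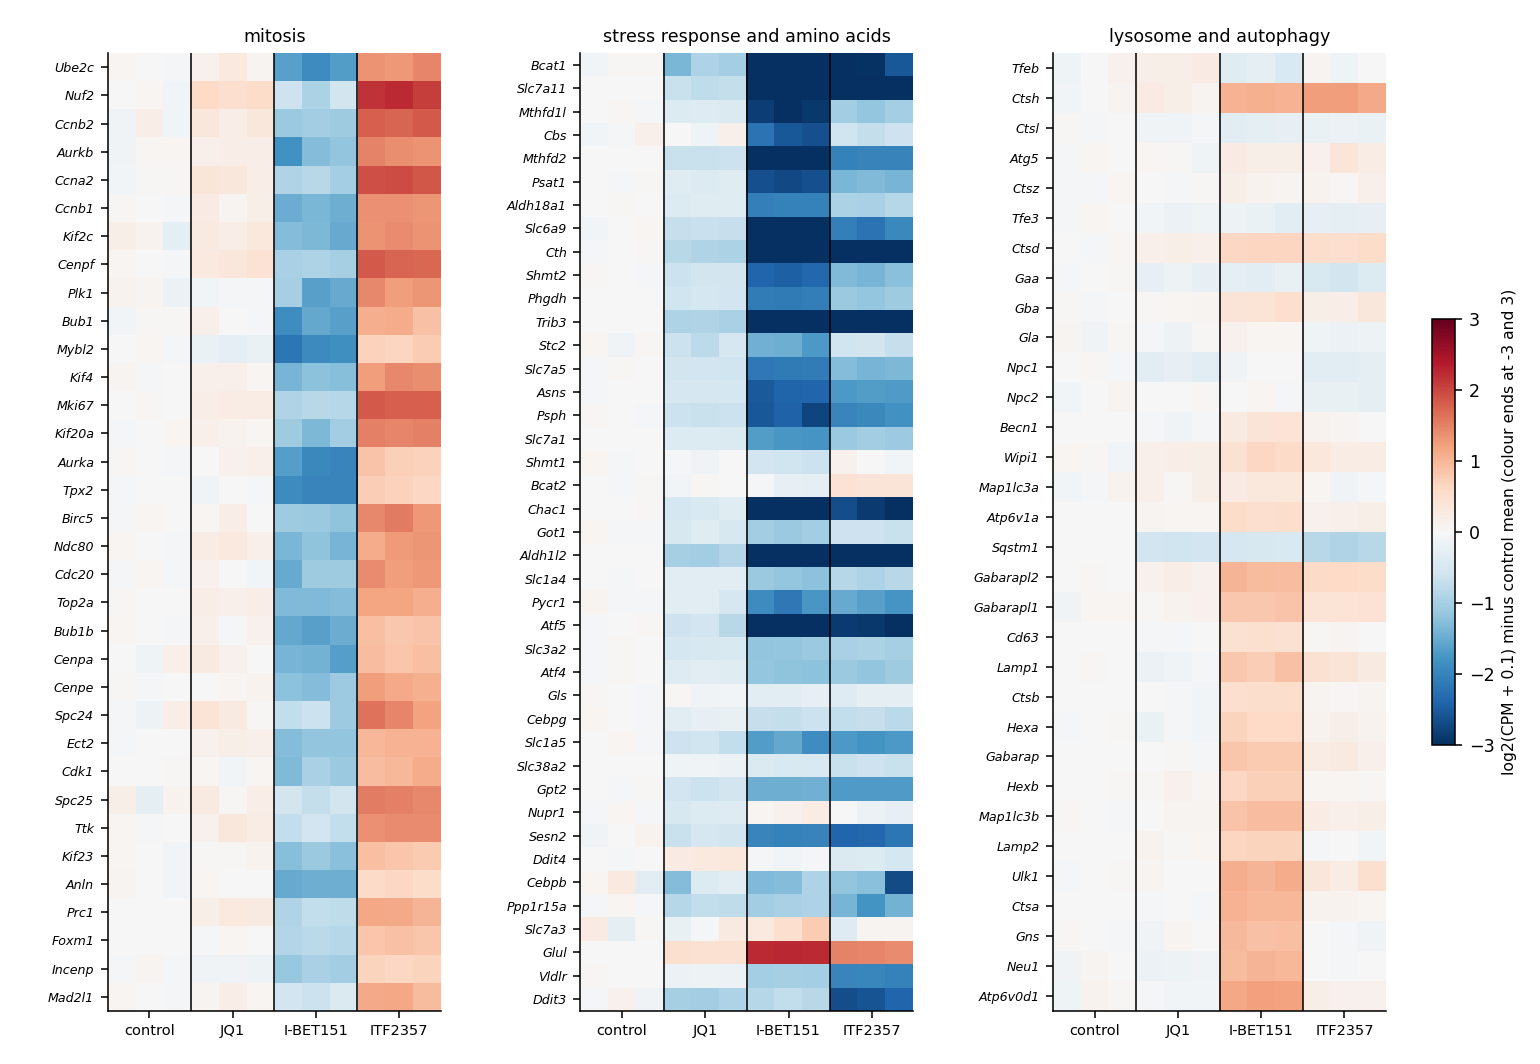
Log2(CPM + 0.1) of each library minus the control mean for the measured genes of the mitosis, stress response and lysosome lists, 12 columns in 4 groups of 3, with colours ending at -3 and 3. Mitosis genes are red with ITF2357 and blue with I-BET151. Most stress response genes are blue with both, and more of them are lower with I-BET151 than with ITF2357. Most lysosome genes are higher with I-BET151 than with ITF2357.

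Myc, the transcription factor often followed after BET inhibition, was below control with both compounds. It stood at 383, 396 and 399 CPM in control, 132, 138 and 129 with I-BET151 and 238, 240.0 and 238 with ITF2357. The groups did not overlap, and Myc was 1.79-fold higher with ITF2357 than with I-BET151 (log2 difference 0.84 ± 0.028 (SE), adjusted p = 3.0e-23). Of the 13 genes of its family and network, 4 were higher and 8 lower with ITF2357, the latter being 4 with library totals. Mycl was at 0.971, 0.253 and 0.506 CPM with I-BET151 and 3.61, 3.06 and 2.74 with ITF2357, a log2 difference of 2.47 ± 0.25 (SE). In control Mycl was above both, at 6.61, 5.96 and 7.21 CPM. Mycn was at 6.65, 5.57 and 5.70 CPM with I-BET151 and 2.57, 2.16 and 2.31 CPM with ITF2357 (-1.34), and the MYC antagonist Mxd1 at 38.9, 45.6 and 43.1 CPM with I-BET151 and 22.6, 20.8 and 23.8 CPM with ITF2357 (-0.92). In control Mycn was at 1.99, 1.99 and 2.42 CPM and Mxd1 at 21.7, 25.8 and 23.5 CPM. Mycn and Mxd1 were separate and higher with I-BET151, and Mycl was separate and higher with ITF2357.

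Ribosome biogenesis genes, many of them textbook targets of MYC, were higher with ITF2357 in 27 of 29, none lower, with a median of 0.63. Srm, spermidine synthase, stood at 10.8, 12.9 and 12.9 CPM with I-BET151, 29.3, 27.1 and 30.6 with ITF2357 and 31.0, 28.9 and 30.8 in control. Dkc1, the pseudouridine synthase, stood at 22.7, 27.1 and 27.5 CPM with I-BET151, 58.5, 55.9 and 52.0 with ITF2357 and 64.7, 60.6 and 61.8 in control. ITF2357 libraries mixed with control for Srm and were just below control for Dkc1, and I-BET151 libraries were well below. Nucleolin, Ncl, and nucleophosmin, Npm1, had log2 differences of 0.66 ± 0.032 (SE) and 0.63 ± 0.022 (SE). List medians against control were -0.80 with I-BET151 and -0.14 with ITF2357.

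The integrated stress response, in which ATF4 drives genes of amino acid uptake and synthesis, was below control with both compounds and further below with I-BET151. Of 41 genes, 37 were lower than control with ITF2357 and 37 with I-BET151, with medians of -1.34 and -1.73, where 26.4% and 32.6% of all genes were lower. Directly compared, 26 were higher and 10 lower with ITF2357, median 0.43. The promoter windows of Slc7a11, the cystine transporter, and Asns, asparagine synthetase, are shown because both genes belong to this list and hold the composite site of ATF4 (TGATGNAA, capitals, either strand). Their RefSeq windows (GRCm38.p6) lie at chr3:50443564-50443863, minus strand, and chr6:7693160-7693459, minus strand.
Slc7a11: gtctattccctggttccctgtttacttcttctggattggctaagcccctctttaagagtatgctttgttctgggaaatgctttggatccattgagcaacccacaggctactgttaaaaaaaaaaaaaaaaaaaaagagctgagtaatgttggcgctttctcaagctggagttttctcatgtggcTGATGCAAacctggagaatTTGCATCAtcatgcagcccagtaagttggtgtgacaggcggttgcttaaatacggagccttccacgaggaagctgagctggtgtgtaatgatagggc
Asns: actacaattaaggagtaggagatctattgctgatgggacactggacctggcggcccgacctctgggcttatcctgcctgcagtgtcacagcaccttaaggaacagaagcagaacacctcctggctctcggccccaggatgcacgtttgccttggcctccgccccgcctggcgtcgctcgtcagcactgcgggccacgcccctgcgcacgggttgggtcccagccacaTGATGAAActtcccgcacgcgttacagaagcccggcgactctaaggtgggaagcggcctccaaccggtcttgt
Slc7a11 held 2 matches, which begin at -66 and -47, and Asns 1, at -23. Of 43 windows of 35 genes of the list, 9 (20.9%) held TGATGNAA, against 2.29% of windows of tested genes and 3.97% of all windows. Among windows of genes called at least 2-fold higher and lower with ITF2357 the shares were 3.1% and 2.64%.

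Slc7a11 stood at 284, 286 and 290.5 CPM in control, 7.09, 6.04 and 6.53 with I-BET151 and 25.6, 29.1 and 22.7 with ITF2357. Asns stood at 231, 238 and 239, 41.2, 44.5 and 45.2 CPM with I-BET151 and 71.0, 73.7 and 73.0 CPM with ITF2357. Mthfd2, a mitochondrial folate enzyme, stood at 95.9, 97.5 and 97.2, 8.64, 8.61 and 8.46 CPM with I-BET151 and 23.8, 24.2 and 24.2 CPM with ITF2357. In all of them I-BET151 libraries were lowest and ITF2357 libraries next, without overlap, and the log2 differences between compounds were 1.97 ± 0.082 (SE), 0.73 ± 0.038 (SE) and 1.49 ± 0.062 (SE). Bcat1, which transfers amino groups of branched-chain amino acids, had 12 counts in all over the I-BET151 libraries and 149 over those of ITF2357, a log2 difference of 3.23 ± 0.34 (SE). Atf4 itself lay almost level, at 162, 158 and 155 CPM with I-BET151 and 169, 160.1 and 173 with ITF2357 against 357, 374 and 361 in control (log2 difference 0.08 ± 0.030 (SE), adjusted p = 0.030). Ddit3, which encodes the stress factor CHOP, went the other way, at 15.4, 16.8 and 15.8 CPM with I-BET151 and 4.41, 4.63 and 5.32 with ITF2357 (log2 difference -1.74 ± 0.097 (SE)). Every ITF2357 library was below every I-BET151 library of Ddit3, and both were below control at 27.3, 31.0 and 26.4. Vldlr (-0.97), Sesn2 (-0.29) and Glul (-0.79) were also lower with ITF2357.

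Antioxidant and glutathione genes, the textbook targets of NRF2, were higher with ITF2357 in 26 of 39 and lower in 8 (5 with library totals), with a median of 0.36. Nqo1, a quinone reductase, stood at 0.146, 0.380 and 0.460 CPM with I-BET151 and 2.73, 2.16 and 2.48 with ITF2357. Gstm2, a glutathione transferase, stood at 4.27, 4.26 and 5.10 CPM with I-BET151 and 19.2, 19.3 and 26.2 CPM with ITF2357, and the retinal dehydrogenase Aldh1a1 at 11.8, 13.4 and 14.6 CPM with I-BET151 and 48.0, 44.9 and 44.2 CPM with ITF2357. The groups were separate for these 3 genes. In control the means were 0.856, 6.76 and 4.03 CPM. Gclc, which catalyses the limiting step of glutathione synthesis, went the other way: it was above control at 73.0, 70.9 and 69.7 with both compounds and highest with I-BET151, at 293, 299 and 317 CPM against 142, 141 and 125 with ITF2357 (log2 difference -1.16 ± 0.039 (SE)). The regulator Nfe2l2, which encodes NRF2, was lower with ITF2357 (-0.50 ± 0.026 (SE)), and Hmox1, a heme oxygenase, was not called (0.04 ± 0.062 (SE), adjusted p = 0.624, and called with library totals). Glutathione transferase genes of a cluster are alike, so their counts are uncertain.

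Immediate-early genes, which growth factors and stress switch on within minutes, were mostly higher with I-BET151. Of 22 genes 17 were lower and 3 higher with ITF2357, median -0.62. Fos stood at 63.6, 62.8 and 67.8 CPM with I-BET151, 26.8, 24.6 and 26.1 with ITF2357 and 16.2, 15.6 and 16.5 in control. Jun stood at 77.4, 84.2 and 79.4 CPM with I-BET151, 44.7, 43.8 and 42.6 with ITF2357 and 27.3, 31.1 and 23.4 in control. Zfp36, a protein that destabilises cytokine mRNA, stood at 118, 111 and 116 CPM with I-BET151, 48.3, 43.8 and 44.7 with ITF2357 and 25.8, 24.7 and 25.05 in control. These genes were above control in each library of both compounds and highest with I-BET151. Atf3 differed from that, with ITF2357 libraries at 12.9, 12.6 and 11.8 CPM below control at 21.4, 22.5 and 21.98 and I-BET151 libraries at 32.96, 35.3 and 35.9 above it. Fosl1, the AP-1 subunit linked with invasive carcinoma cells, was the largest exception: 8.98, 8.70 and 9.84 CPM with I-BET151, 48.5, 48.2 and 50.2 with ITF2357 and 102, 104 and 109 in control, a log2 difference of 2.42 ± 0.063 (SE) (adjusted p = 2.3e-26).

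Upstream of these genes, the EGF receptor ligands Areg, Ereg and Btc were lower with I-BET151. Areg, amphiregulin, stood at 3.40, 2.07 and 3.36 CPM with I-BET151, 23.7, 22.7 and 23.6 with ITF2357 and 55.7, 52.0 and 51.7 in control. Ereg, epiregulin, stood at 12.1, 10.1 and 10.3 CPM with I-BET151, 34.1, 36.6 and 32.8 with ITF2357 and 63.0, 58.7 and 59.5 in control, and Btc, betacellulin, at 3.79, 3.00 and 3.17 CPM with I-BET151, 19.8, 15.9 and 16.7 with ITF2357 and 29.2, 25.1 and 25.2 in control. In each of these ligands the order was I-BET151, ITF2357, control, with no overlap. Hbegf (-0.10) and Tgfa (0.15) were called with values about the size of the shift between scalings, in opposite directions, and Egf was not called (-0.17). The receptor gene Egfr was higher with ITF2357 (0.79 ± 0.057 (SE)), and Erbb2 (-0.33 ± 0.037 (SE)) and Erbb3 (-0.29 ± 0.076 (SE)) were lower. Over the 11 genes 6 were higher and 3 lower, and 1 was lower with library totals. Among 17 feedback genes of the MAP kinase pathway 6 were higher and 8 lower, against 31.9% and 30.9% of all genes, with a median of -0.03 that turned to 0.11 with library totals and to 0.00 without I-BET151 replicate 2. Etv4 (1.85) and Etv1 (1.46), ETS factors induced by this pathway, were higher with ITF2357, while the phosphatase genes Dusp4 (-0.84) and Dusp6 (-0.35) were lower.

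Matrix metalloproteinase genes on chromosome 9 lay far below control with both compounds, and further below with I-BET151. The windows of Mmp13, Mmp3 and Mmp10, a collagenase and both stromelysins, are shown because each of them holds 1 match to the AP-1 site TGANTCA (capitals; the motif was sought on either strand). They lie at chr9:7272264-7272563, plus strand, chr9:7445572-7445871, plus strand, and chr9:7502092-7502391, plus strand (RefSeq, GRCm38.p6).
Mmp13: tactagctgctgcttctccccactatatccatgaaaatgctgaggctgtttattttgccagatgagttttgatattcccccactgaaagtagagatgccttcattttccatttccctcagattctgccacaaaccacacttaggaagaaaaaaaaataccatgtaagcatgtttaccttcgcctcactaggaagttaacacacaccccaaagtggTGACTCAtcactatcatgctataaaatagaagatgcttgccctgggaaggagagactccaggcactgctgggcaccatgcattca
Mmp3: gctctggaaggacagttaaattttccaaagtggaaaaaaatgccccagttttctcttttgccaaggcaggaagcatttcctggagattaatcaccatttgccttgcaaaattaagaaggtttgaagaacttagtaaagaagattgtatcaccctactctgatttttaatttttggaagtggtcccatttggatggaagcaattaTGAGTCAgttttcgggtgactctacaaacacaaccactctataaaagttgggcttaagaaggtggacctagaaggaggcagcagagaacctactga
Mmp10: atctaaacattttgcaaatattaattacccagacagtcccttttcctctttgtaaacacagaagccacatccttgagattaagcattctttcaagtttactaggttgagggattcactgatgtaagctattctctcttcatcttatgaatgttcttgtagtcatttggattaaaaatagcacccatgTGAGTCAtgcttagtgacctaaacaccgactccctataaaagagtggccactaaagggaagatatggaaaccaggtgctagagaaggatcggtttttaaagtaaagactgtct
The matches begin at -35, -46 and -63. Among 13 windows of 12 genes of the metalloproteinase list 3 (23.1%) held the motif, against 5.66% of windows of tested genes and 7.81% of all windows. It was held by 181 of 1582 windows (11.4%) of genes called at least 2-fold higher with ITF2357 and by 25 of 417 windows (6.00%) of those called at least 2-fold lower.

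Mmp13 stood at 67.6, 67.5 and 66.9 CPM in control, 0.437, 0.760 and 0.965 with I-BET151 and 9.73, 10.3 and 7.63 with ITF2357. Mmp3 stood at 12.1, 13.7 and 13.3, 0.582, 0.549 and 0.230 CPM with I-BET151 and 2.31, 2.97 and 2.58 CPM with ITF2357, and Mmp10 at 9.56, 9.76 and 9.20, 0.0971, 0.253 and 0.0919 CPM with I-BET151 and 0.729, 0.764 and 0.991 CPM with ITF2357. All 3 genes were below control in each library of both compounds and lowest with I-BET151. Log2 differences between compounds were 3.65 ± 0.17 (SE), 2.50 ± 0.24 (SE) and 2.42 ± 0.38 (SE), with adjusted p = 1.6e-19, 3.4e-11 and 1.1e-06. Counts over the I-BET151 libraries were only 48, 30 and 10. Mmp15, a membrane-type enzyme, was above control at 15.7, 16.2 and 17.0 with both and highest with I-BET151, at 99.0, 96.8 and 95.5 CPM against 41.6, 38.1 and 38.6. The inhibitor genes Timp1 (1.30) and Timp2 (-0.45) differed in opposite directions. In the list as a whole 6 of 14 were higher and 3 lower with ITF2357, against 31.9% and 30.9% of all genes.

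**Figure D4:**
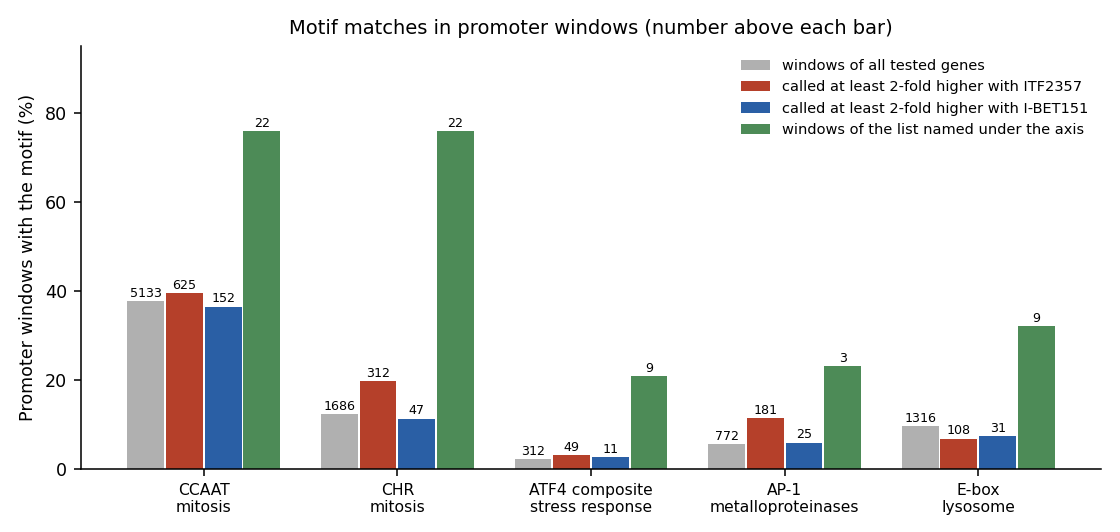
Share of promoter windows, in percent, that held each motif, for all tested genes, for genes called at least 2-fold higher or lower with ITF2357, and for the windows of the list named under the axis. Bars start at 0 and the number of windows with the motif stands above each; the mitosis list reached 75.9% for CCAAT and for the CHR.

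Matrix and adhesion genes were higher with ITF2357 in 20 of 30 and lower in 6, with a median of 0.39. Col6a2, a chain of collagen VI, stood at 2.72, 3.50 and 3.31 CPM with I-BET151, 34.02, 33.7 and 39.4 with ITF2357 and 35.4, 40.9 and 36.2 in control. Lamb3, the beta chain of epithelial laminin, stood at 9.03, 10.1 and 10.1 CPM with I-BET151, 89.1, 83.4 and 89.2 with ITF2357 and 35.6, 37.3 and 33.9 in control. Col6a2 with ITF2357 was thus near control, whereas Lamb3 was above it, and both were below control with I-BET151. Integrin Itgb6 (2.58) was higher with ITF2357, and the laminins Lamb2 (-0.74), Lama5 (-0.48) and Lama3 (-0.47) were lower. Among 22 mesenchymal genes 15 were higher and 2 lower, median 0.38. One of the lower ones, the smooth muscle actin Acta2 (-0.71 ± 0.29 (SE), adjusted p = 0.031), overlapped between the compounds and lost its call with library totals, with the 6 libraries alone and without several single libraries. Vimentin, Vim, stood at 1055, 1054 and 1049 CPM with I-BET151, 1694, 1625 and 1709.6 with ITF2357 and 1424, 1465 and 1457 in control. Thrombospondin, Thbs1, stood at 356, 359.7 and 382 CPM with I-BET151, 945, 909 and 967 with ITF2357 and 668, 661 and 657 in control. Of these 3 groups, ITF2357 had the highest libraries of both genes. The transcription factor genes Snai1 (1.33) and Twist2 (1.32) were higher with ITF2357. Zeb1 (0.04, adjusted p = 0.270) and Snai2 (-0.03, adjusted p = 0.754) were not called.

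Epithelial genes did not fall on the opposite side from the mesenchymal ones. Of 26 junction and keratin genes 15 were higher and 8 lower with ITF2357 (5 with library totals), median 0.25. Cdh1 stood at 1492, 1492 and 1512 CPM with I-BET151 and 1443, 1393 and 1457 with ITF2357, both above control at 772, 789 and 780.4. The log2 difference of Cdh1 was -0.07 ± 0.020 (SE) (adjusted p = 0.0049); it turned to 0.07 with library totals, so its direction depends on the scaling. Plakophilin Pkp1 stood at 1.41, 0.802 and 0.827 CPM with I-BET151 and 8.34, 8.57 and 8.62 with ITF2357 (3.08), and the claudin genes Cldn3 (1.14) and Cldn4 (1.19) were higher with ITF2357. Pkp1 in control was above both, at 14.7, 14.1 and 14.0 CPM. Krt8 was higher with ITF2357, at 1386, 1347 and 1439.5 CPM against 929, 931 and 943, while Ocln, occludin, was lower (-0.30). Of 18 pancreatic and foregut transcription factor genes 4 were higher and 9 lower, median -0.19. Among them Foxa2 differed by -0.52. Trp63, which marks the squamous programme, had 4 counts over the I-BET151 libraries, 46 over the ITF2357 libraries and 42 over control.

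Among 12 secretory genes of the mucin, trefoil and Clca kind, 5 were higher and 3 lower with ITF2357, against 31.9% and 30.9% of all genes, so the list as a whole lay near the background. Beside Muc1 and Clca1, the membrane mucin Muc4 was lower with ITF2357 (-0.98). The gel-forming mucin Muc5ac had means of 4.86 ± 0.18 CPM in control, 30.8 ± 0.064 with I-BET151 and 36.1 ± 2.7 with ITF2357 (0.23 ± 0.071 (SE)). Other Clca genes went against Clca1: Clca3b stood at 6.16, 5.02 and 4.73 CPM with I-BET151 and 16.6, 16.2 and 14.7 with ITF2357, and Clca3a1 at 38.2, 37.9 and 36.8 CPM with I-BET151 and 75.5, 71.9 and 68.9 CPM with ITF2357. Clca3a1, Clca3a2 and Clca3b are close relatives, so reads could be split between them.

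Cytokine and NF-kB response genes were higher with ITF2357 in 18 of 25 and lower in 5, with a median of 0.79. Ccl2, a chemokine for monocytes, stood at 1.80, 1.604 and 1.47 CPM with I-BET151, 13.5, 17.4 and 13.6 with ITF2357 and 5.44, 7.42 and 7.82 in control. Csf2, which encodes GM-CSF, stood at 0.437, 0.338 and 0.230 CPM with I-BET151, 4.09, 4.03 and 2.64 with ITF2357 and 2.95, 3.71 and 3.76 in control. Ptgs2, the inducible cyclooxygenase, stood at 30.3, 29.0 and 32.3 CPM with I-BET151, 74.5, 77.1 and 77.5 with ITF2357 and 218, 219 and 209 in control. In each of these I-BET151 libraries were the lowest, whereas the ITF2357 libraries were above control for Ccl2, near it for Csf2 and below it for Ptgs2. Cxcl10 rested on 3 counts with I-BET151 and 63 with ITF2357. The cytokine gene Il18 went the other way, at 13.4, 15.4 and 18.2 CPM with I-BET151 and 8.78, 10.7 and 8.85 with ITF2357 against 3.03, 2.65 and 2.63 in control, and the inhibitor gene Nfkbia was lower with ITF2357 (-0.65).

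Interferon response genes were higher with ITF2357 in 14 of 23 and lower in 5 (median 0.56). Ifit2 stood at 2.23, 1.90 and 1.24 CPM with I-BET151, 9.26, 10.4 and 9.87 with ITF2357 and 4.36, 4.64 and 3.71 in control. Irf1 (-0.49), Stat2 (-0.40) and Irf9 (-0.40), regulators of the response, were lower with ITF2357. Of 15 genes of MHC class I presentation 9 were higher and 3 lower. The light chain gene B2m stood at 210.2, 210.0 and 214 CPM with I-BET151 and 197, 203 and 190.1 with ITF2357; its log2 difference of -0.10 ± 0.028 (SE) turned to 0.03 with library totals. H2-D1 was higher with ITF2357 (0.39 ± 0.048 (SE)), H2-K1 was not called (0.13 ± 0.065 (SE), adjusted p = 0.093) and Tapbp, tapasin, was lower (-0.54 ± 0.036 (SE)). H2 genes are alike in sequence and their counts are uncertain.

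In a list of immune checkpoint ligands and other immune-related genes, such as Raet1e and Ido1, 10 of 15 were higher and 4 lower with ITF2357. Cd274, which encodes PD-L1, stood at 6.12, 5.53 and 5.65 CPM with I-BET151, 3.33, 4.88 and 4.79 with ITF2357 and 5.36, 5.21 and 5.92 in control. Its log2 difference was -0.42 ± 0.14 (SE) (adjusted p = 0.0079); the call was lost with library totals (adjusted p = 0.0704) and without ITF2357 replicate 1 (adjusted p = 0.108). Raet1e, a stress ligand of the receptor NKG2D, stood at 3.25, 3.93 and 3.82 CPM with I-BET151 and 15.5, 16.8 and 15.4 with ITF2357, and Cd276 differed by 1.03 ± 0.048 (SE). Raet1e in control was at 14.9, 15.2 and 16.2 CPM, which the ITF2357 libraries overlapped. Ido1, the tryptophan-degrading enzyme, rested on 4 counts with I-BET151 and 33 with ITF2357.

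Death regulators of the BCL2 family were lower with ITF2357 in 8 of 14 and higher in 3, the latter being 5 with library totals; over all genes 30.9% were lower and 31.9% higher. Bcl2l11, which encodes the killer protein BIM, stood at 119, 117 and 121 CPM with I-BET151, 40.2, 40.6 and 39.5 with ITF2357 and 67.9, 66.3 and 63.1 in control. Bmf, another BH3-only gene, stood at 192, 193 and 197 CPM with I-BET151, 75.6, 72.5 and 80.2 with ITF2357 and 64.7, 62.9 and 62.1 in control. Mcl1, a survival gene, stood at 519.9, 522 and 529 CPM with I-BET151, 341, 350.1 and 333 with ITF2357 and 266, 252 and 248 in control. I-BET151 libraries were the highest for all 3 genes. With ITF2357, Bcl2l11 was below control. Bcl2l15, a pro-apoptotic relative, ran opposite, at 0.388, 0.253 and 0.460 CPM with I-BET151 and 5.33, 4.29 and 6.21 with ITF2357 against 24.7, 24.96 and 22.5 in control.

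Lysosome and autophagy genes were higher with I-BET151. Of 32 measured genes 26 were lower and 3 higher with ITF2357 (6 higher with library totals), median -0.37; medians against control were 0.54 with I-BET151 and 0.08 with ITF2357. The window of Lamp1, a major membrane protein of lysosomes, is shown because it holds 4 matches to the palindromic E-box CACGTG (capitals), the core of the site that TFEB and its relatives bind and that MYC and MAX also bind. It lies at chr8:13158911-13159210, plus strand (RefSeq, GRCm38.p6).
Lamp1: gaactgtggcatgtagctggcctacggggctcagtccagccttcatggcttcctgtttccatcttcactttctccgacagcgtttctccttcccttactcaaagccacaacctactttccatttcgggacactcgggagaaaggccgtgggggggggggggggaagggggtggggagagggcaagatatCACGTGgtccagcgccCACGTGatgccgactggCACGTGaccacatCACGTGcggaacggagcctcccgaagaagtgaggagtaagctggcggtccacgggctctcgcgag
The matches begin at -61, -45, -28 and -15. Of 28 windows of 24 genes of the list 9 (32.1%) held the E-box, against 9.66% of windows of tested genes and 7.15% of all windows. Among windows of genes called at least 2-fold higher and lower with ITF2357 the shares were 6.83% and 7.43%, both below that of tested genes.

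Lamp1 stood at 818, 786 and 855 CPM with I-BET151, 641, 609.8 and 568 with ITF2357 and 463, 479.8 and 461 in control. Atp6v0d1, a subunit of the proton pump, stood at 84.2, 89.1 and 88.1 CPM with I-BET151, 42.9, 41.7 and 41.5 with ITF2357 and 34.4, 40.4 and 39.1 in control. Neu1, a sialidase, stood at 136, 142 and 139.6 CPM with I-BET151, 70.1, 67.3 and 71.1 with ITF2357 and 65.2, 74.7 and 71.3 in control. I-BET151 libraries were highest in each, and for Neu1 the ITF2357 libraries lay in the range of control. The regulator Tfeb was slightly higher with ITF2357 (0.36 ± 0.097 (SE)) and the related Tfe3 was not called (-0.03 ± 0.044 (SE), adjusted p = 0.519). Transcripts encoded in mitochondria were also lower with ITF2357, 12 of 13 with a median of -0.52. They made up 3.84 to 3.97% of the counts of I-BET151 libraries, 2.94 to 3.13% of ITF2357 libraries and 2.22 to 2.32% of control. The share of mitochondrial counts moves with RNA quality and cell state alike, and its part in the other differences was not tested.

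Sterol and fatty acid synthesis genes were higher with ITF2357 in 29 of 37 and lower in 4, median 0.47. Among them Tm7sf2, a sterol reductase, stood at 11.2, 12.5 and 11.4 CPM with I-BET151, 6.82, 8.78 and 7.26 with ITF2357 and 8.52, 6.72 and 8.51 in control, a log2 difference of -0.63 ± 0.11 (SE). The Tm7sf2 libraries of ITF2357 overlapped control, and those of I-BET151 lay above both. Chaperones of the endoplasmic reticulum were higher in 12 of 19 and lower in 5 (3 with library totals), with Hsp90b1 at 286, 298 and 300.1 CPM with I-BET151 and 476, 460.2 and 459 with ITF2357. Glycolysis and hypoxia genes were split, 15 higher and 11 lower of 33, median 0.08, which is within the shift between scalings. Within them the lactate transporter Slc16a3 (2.16), the hexokinase Hk2 (0.83), Ldha (0.71) and the hypoxia-induced Pfkfb4 (1.02) were higher with ITF2357. The glycolytic enzyme gene Eno2 (-1.71) and the hypoxia targets Bnip3 (-1.05), Vegfa (-0.77) and Ndrg1 (-0.61) were lower, so enzymes and hypoxia targets lay on both sides.

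Serpin genes, mostly inhibitors of proteases, were higher with ITF2357 in 8 of 12, median 1.31. Serpinb5, maspin, stood at 0.0485, 0.0844 and 0.276 CPM with I-BET151, 5.48, 5.13 and 4.59 with ITF2357 and 1.04, 0.751 and 0.648 in control. Serpinb9b, an inhibitor of granzymes, stood at 19.1, 21.1 and 19.03 CPM with I-BET151, 91.1, 85.7 and 93.9 with ITF2357 and 17.7, 20.4 and 19.3 in control. I-BET151 libraries were below control for Serpinb5 and overlapped control for Serpinb9b, and ITF2357 libraries were above control for both. Serpini1, neuroserpin, a protease inhibitor of neurons, stood at 16.7, 17.6 and 16.3 CPM with I-BET151, 16.2, 14.8 and 14.1 with ITF2357 and 4.78, 5.35 and 4.92 in control. Serpini1 was above control in every library of both compounds, and higher in each I-BET151 library than in any ITF2357 library. Its log2 difference between them was -0.16 ± 0.085 (SE), 95% interval -0.34 to 0.01, which was not called (adjusted p = 0.094; 0.0424 without ITF2357 replicate 1). The list of neuronal genes silenced by REST outside neurons also holds Rest. Of its 14 measured genes 9 were higher with ITF2357 and 1 was lower (none with library totals), median 0.46. The lower one was Rest itself (-0.15 ± 0.030 (SE)), and the synaptic gene Snap25 stood at 0.437, 0.127 and 0.506 CPM with I-BET151 and 4.28, 4.96 and 4.79 with ITF2357. Snap25 in control was at 4.11, 3.09 and 3.67 CPM. Against control it was not called with ITF2357 (0.36, adjusted p = 0.085) and was lower with I-BET151 (-3.36). List medians against control were -0.08 with ITF2357 and -0.26 with I-BET151.

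**Figure D5:**
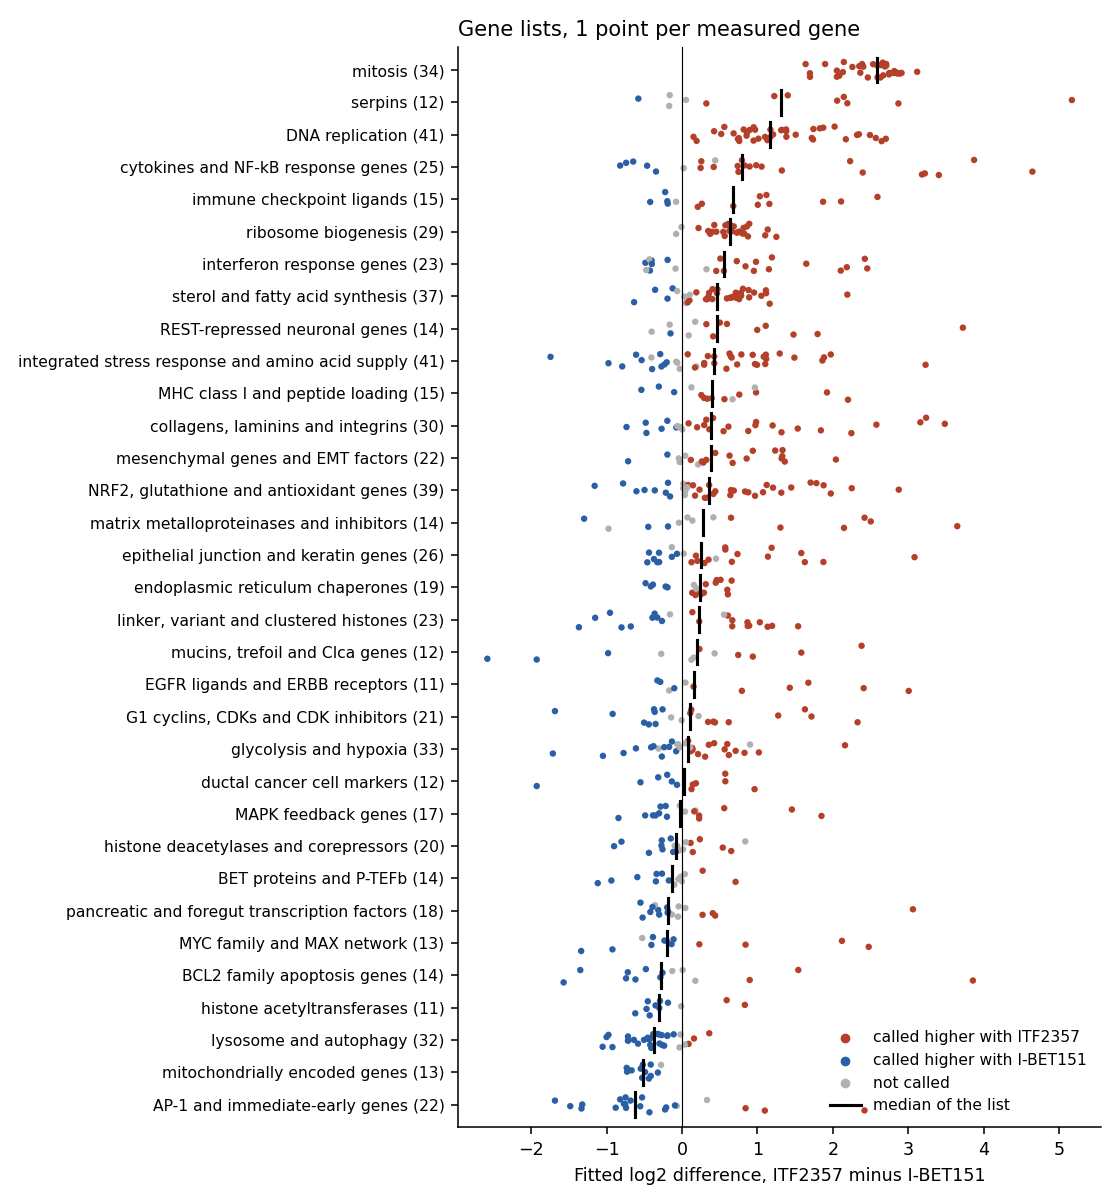
Fitted log2 difference (ITF2357 minus I-BET151) of each measured gene in the lists with at least 10 measured genes, with the number in brackets, the median as a black bar and calls in colour. The mitosis list lies wholly right of 0 with a median of 2.59, and the AP-1 and immediate-early list has the lowest median, -0.62.

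Markers of other cell types were few in these libraries. Of 10 fibroblast markers 3 were measured, Col1a1 (1.53), Pdgfra (2.16) and Pdgfrb (-1.04), with summed levels of 6.75 to 7.72 CPM with I-BET151 and 20.2 to 23.1 with ITF2357. Of 12 macrophage and leukocyte markers 4 were measured, with summed levels of 58.5 to 63.5 and 148 to 149.9 CPM. Most of that sum was Mrc1 and Cd14, while Ptprc, Csf1r and Adgre1 were looked for and were not among the genes of the count table. Of 8 endothelial markers 4 were measured, at 41.8 to 48.6 and 35.5 to 37.2 CPM in sum, and of 10 acinar markers 2, at 0.552 to 1.505 and 6.20 to 7.39 CPM. No endocrine marker of 8 was measured. The part of other cell types in the differences was not tested.

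Many genes were measured to differ little. The 95% interval of the difference lay within 0.32 of no difference on the log2 scale, either way, for 3836 genes (22.1%), of which 1721 were nonetheless called, and 6444 genes (37.2%) were not called at all. Within this narrow margin, the genes furthest from control with both compounds, picked after their values were seen, included transcription factors, a chromatin remodeller and metabolic genes. Phf10, a subunit of the PBAF remodelling complex, stood at 129, 127 and 134 CPM in control, 40.1, 40.5 and 41.6 with I-BET151 and 41.5, 41.4 and 39.1 with ITF2357, with an interval of the log2 difference from -0.09 to 0.09. Snai2, which represses epithelial genes, stood at 38.9, 43.3 and 43.9, 13.2, 14.9 and 14.6 CPM with I-BET151 and 13.1, 15.1 and 13.8 CPM with ITF2357 (interval -0.19 to 0.13). The glutamine transporter gene Slc1a5 stood at 79.6, 84.3 and 77.6, 25.3, 27.9 and 22.2 CPM with I-BET151 and 24.2, 23.1 and 24.2 CPM with ITF2357 (interval -0.21 to 0.06). For these genes both compounds lay below every control library and mixed with each other. Ghr, the growth hormone receptor (135, 31.8 and 36.9 CPM on average), and Bhlhe41, a circadian repressor (64.0, 18.1 and 18.98), were likewise low with both. Elf3, an epithelial ETS factor (16.6, 52.9 and 46.6), was high with both. These comparisons share the control libraries.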

How the data were processed

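RNA of KPC cells was extracted with TRIzol and miRNeasy kits, made into libraries with a KAPA RNA HyperPrep kit and read as paired ends on a NovaSeq, per the labels' protocols. The tools named in the submitters' processing notes are edgeR 3.38.4, Subread 2.0.1 with featureCounts, STAR 2.7.2a and bcl2fastq, with build mm10. RNA selection, the strand setting and the annotation release are not given in the sources used here. If strand was ignored, counts of genes that overlap on opposite strands cannot be told apart. Raw counts of each gene in each library, deposited by the authors in 1 table, were used here. No gene in it had fewer than 51 counts over all libraries. The same deposited table holds gene lengths, which gave RPKM for the comparison of levels between genes. The authors' deposited log2 CPM, log2 RPKM, log2 fold changes and p-values in that table were not used for any value given here. Identifiers of 17170 of 17340 genes (99.0%) matched GENCODE M21 exactly, the source of gene coordinates, counted from 1.

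Under R 4.3.3, edgeR 4.0.16 was run on the counts; its filterByExpr step removed 0 genes, TMM factors scaled the library sizes, and all 12 libraries entered 1 quasi-likelihood fit with 1 coefficient per group, in which the biological coefficient of variation was 3.37%. The script was tested on simulated counts. Log2 differences are fitted values of ITF2357 minus I-BET151, with the standard error (SE) after the ± sign; CPM values are TMM-scaled and given for replicates 1, 2 and 3 in that order, or as mean ± SD. Intervals are 95% intervals of the fit. Counting bounds cover counting error only.

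Named genes were the 12 largest called differences in each direction among genes whose mean log2 CPM reached 2, with no overlap between the compounds, up to 3 called members of each list in its main direction with the largest opposite one, and in any case Hexim1, Myc, Brd2, Cd274, Cdkn1a, H1f0, Cdh1, Vim, B2m, Hmox1, Ccl2, Muc1, Clca1, Mmp13 and Serpini1; further list members and genes are named as examples chosen with their values seen. The lists, the genes and the comparison were chosen with earlier results of these data known. Of 847 listed symbols 717 were measured. Lists are described by counts and medians, and no test over a list was made. A few list members counted in those totals are not reported here by name. Alternatives were DESeq2 1.42.0, RLE factors, library totals, other filters, the 6 libraries alone, replicate number as a covariate and each library left out. Promoter windows are RefSeq sequences matched by symbol, 13629 windows of 10649 tested genes.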

Additional observations from a re-analysis of the deposited data

How the results depend on the processing

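The number of genes called lay between 10150 and 10902 under every alternative, against 10896 as reported, and no alternative but library totals alone called any gene in the opposite direction; that one did so for 15 genes. The scaling mattered most: with library totals alone 7095 genes were higher and 3729 lower with ITF2357, Cdh1 turned to 0.0692 (adjusted p = 0.0034) and B2m to 0.0315 (adjusted p = 0.32). The list medians of the histone deacetylases and of the MAP kinase feedback genes turned positive with it. With only genes at 1 CPM or more in at least 3 libraries, 28 in place of 64 genes were called at least 4-fold lower with ITF2357, since fewer genes were tested (14995). The narrow interval held 7901 in place of 3836 genes at a margin of 1.5-fold, which is wider by construction. Leaving out each library in turn gave 10150 to 10551 called genes. Of 159 named genes, 11 changed call or sign under any alternative; beside those whose change the report gives these were Hexim2, mt-Atp8, Vwf and Epcam, and for them the cause was not tested. DESeq2 gave no adjusted p for 1 gene.

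No effect shared by replicate number was seen between the compounds: deviations of same-numbered libraries correlated at -0.05, 0.01 and -0.09. Differently numbered libraries gave -0.08 to 0.10. With so few libraries this cannot tell whether samples were paired by culture or preparation, which the labels do not give. With the replicate block 10764 genes were called, 10736 of them shared with the fit without it and in the same direction. Depth limits the genes with few counts in I-BET151 libraries, such as Cxcl10, Trp63, Ido1 and Mmp10, whose differences carry wide errors.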

Other observations

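Genes differed between the compounds by kind. Of 12665 protein-coding genes, 11.5% were called at least 2-fold higher and 2.27% at least 2-fold lower with ITF2357. Of 1520 long non-coding RNAs the shares were 13.2% and 11.2%. Loci annotated as unconfirmed transcripts (TEC, 1139 genes) were called higher with ITF2357 in 9.75% and lower in 36.5%, and their median log2 difference was -0.27. Many such loci lie within introns, and whether reads of unspliced RNA contributed was not tested.

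Short protein-coding genes tended to be higher with ITF2357. In the quartile of the shortest annotated length, 44.5% were called higher and 18.7% lower, and in the quartile of the longest 32% and 45.9%. Quartiles were set over all genes. Length, level and detection move together in counts, and their parts were not told apart.

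Promoters of lower GC content had more of the large differences in favour of ITF2357. Among windows of the lowest GC quartile (26.3 to 53.3% GC) 19.5% belonged to genes called at least 2-fold higher with ITF2357 and 3.92% to genes called at least 2-fold lower. In the highest quartile (67.7 to 88.7% GC) the shares were 6.25% and 3%. The quartiles between had 2.69% and 2.63% called at least 2-fold lower, so that direction showed no steady trend. The part of expression level in this was not tested. A TATAAA match stood in 181 of 1582 windows (11.4%) of genes called at least 2-fold higher and in 58 of 417 windows (13.9%) of those lower, against 7.59% of windows of all tested genes. Median GC was 55.3%, 58.7% and 60.3% in these groups. Genes with several annotated starts have more than 1 window.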
